A study of Mus musculus with 12 samples.

Results

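The 10 genes described here are immediate early genes: the FOS-family members Fos, Fosb, Fosl1 and Fosl2, the JUN-family members Jun, Junb and Jund, the zinc finger gene Egr1, and Ier2 and Ier3. They were taken by name, and each symbol was matched to 1 mouse Ensembl gene among the 43432 genes of the tables. RNA was sequenced from BV2 cells, an immortalized mouse microglial line, in 6 groups of 2 libraries each. The groups were LPS with 10 or 30 µM 6-shogaol, LPS with 10 or 30 µM 6-gingerol, LPS alone, and untreated cells. All cells had been moved to serum-free medium 24 h after seeding and held there for at least 4 h. The compound went on 1 h before LPS (lipopolysaccharide, the bacterial endotoxin sensed by TLR4), which was used at 100 ng/mL. The time of harvest after LPS is not given in the sources used here, nor is it stated that replicates were separate cultures, so the p-values measure only the spread between these libraries. 6-Gingerol and 6-shogaol are pungent phenols of ginger, and shogaol arises from gingerol by loss of water, which turns a β-hydroxy ketone into an α,β-unsaturated ketone. No group received a compound without LPS.

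Immediate early genes are transcribed within minutes of a stimulus from factors already present in the cell, and most of their mRNAs are short-lived. FOS and JUN proteins are basic leucine zipper factors that pair to form AP-1. JUN proteins can pair with each other, whereas FOS proteins need a JUN partner. In macrophages and microglia, TLR4 signalling reaches these genes through MAP kinases and NF-κB, and AP-1 then acts on cytokine and protease genes. EGR1 is a zinc finger activator induced by the same kinases, IER2 is a short-lived nuclear regulator, and IER3 is an NF-κB-induced protein that modulates cell survival and kinase signalling.

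Library totals ran from 16534960 to 21179867 expected counts (reads per gene as estimated by RSEM). The 10 microglial and macrophage markers summed to 2222 to 2806 CPM in the 12 libraries, with 2462 and 2522 CPM with LPS and 30 µM 6-shogaol, 2637 and 2640 CPM with LPS, and 2222 and 2296 CPM in untreated cells; the part of this in the results was not tested. Astrocyte markers summed to at most 0.0587 CPM, and Aqp4, Slc1a3, Snap25, Mog and Cd3e had 0 counts in every library. CPM, the count divided by the TMM-scaled library size, is used for comparing groups. TPM, which also divides by transcript length, is used for comparing genes. Of the 10 genes 8 had enough counts to be tested, and Fosb and Egr1 did not. In bulk RNA, fewer expressing cells and less RNA per cell cannot be told apart.

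Per length, Ier3 was the most abundant of the 10 after LPS at 137 ± 3.31 TPM (SD, n = 2). Junb followed at 61.1 ± 0.33 TPM, Jund at 30.2 ± 1.82 TPM and Jun at 18.6 ± 1.82 TPM. Ier2 stood at 8.70 ± 1.08 TPM. The FOS family was scarce, with Fosl2 at 3.25 ± 0.30, Fosl1 at 2.5 ± 1.03 and Fos at 1.73 ± 0.41 TPM, neighbours in this order lying within their joint spread. Fosb was at 0.08 TPM in both LPS libraries and Egr1 at 0.

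**Figure D1:**
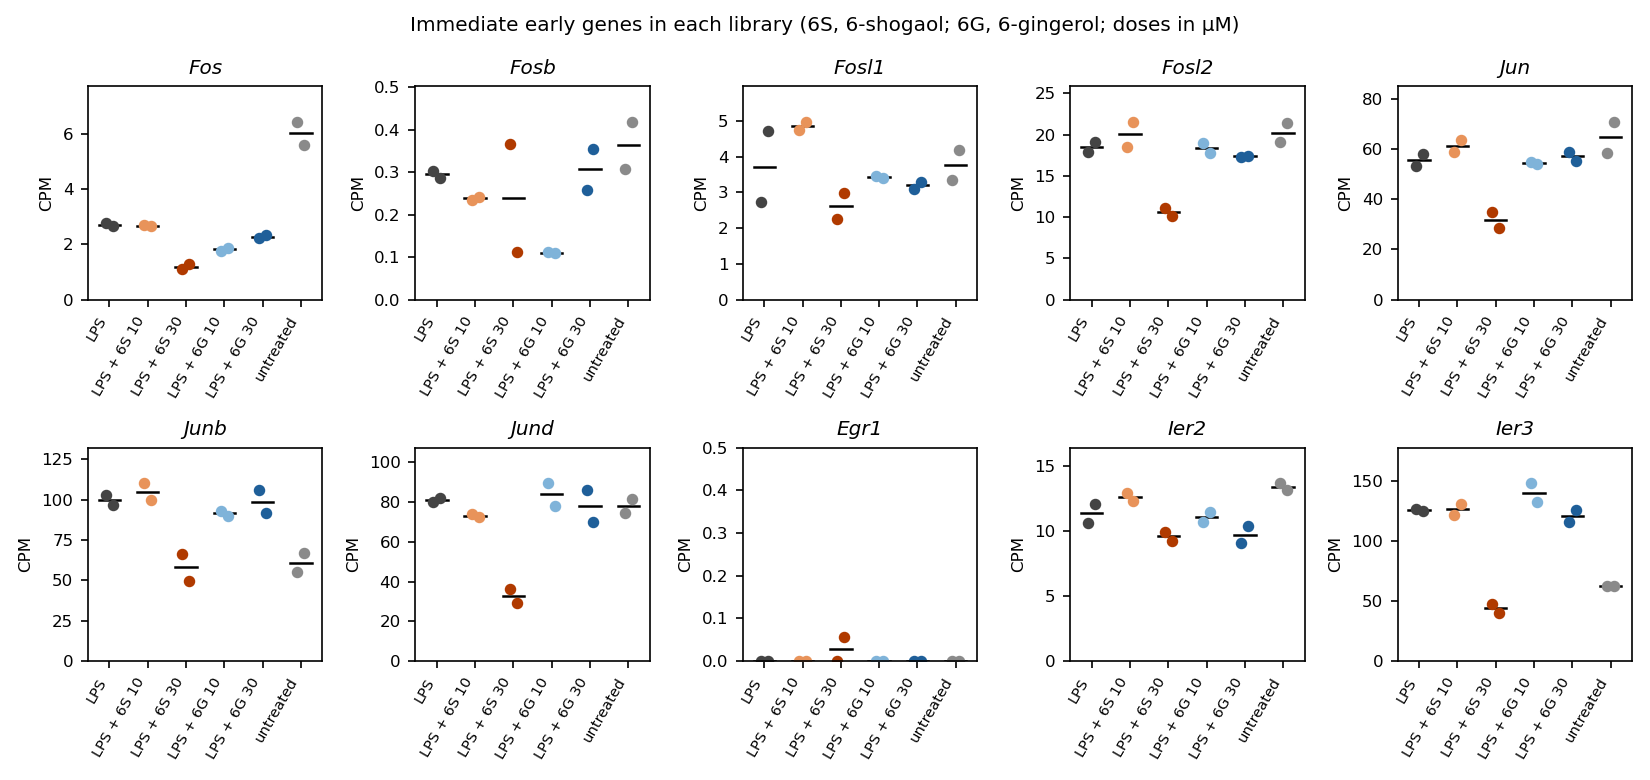
CPM of the 10 genes in each library. Each point is 1 library and each bar the mean of 2, and the y axis of each panel starts at 0. In 8 panels, all but Fosb and Egr1, the lowest group mean is that of 30 µM 6-shogaol with LPS, and Ier3 and Junb are higher with LPS than in untreated cells.

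3 promoter windows are shown because their genes moved in different ways: Ier3 and Junb were higher with LPS, and Fos was lower. Each runs from 250 bases before to 50 bases after the RefSeq start site on GRCm38.p6, 5′ to 3′ on the gene's strand. Capitals mark matches to the κB consensus, the site class of NF-κB. The windows are chr17:35821463-35821762 (plus strand) for Ier3, chr8:84978699-84978998 (minus strand) for Junb and chr12:85473640-85473939 (plus strand) for Fos.
Ier3: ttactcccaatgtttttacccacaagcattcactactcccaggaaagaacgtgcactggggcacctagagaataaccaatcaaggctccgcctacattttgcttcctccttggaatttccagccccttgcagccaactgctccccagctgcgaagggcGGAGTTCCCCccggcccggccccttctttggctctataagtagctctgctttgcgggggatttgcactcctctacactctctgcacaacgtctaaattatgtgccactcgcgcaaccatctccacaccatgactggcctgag
Junb: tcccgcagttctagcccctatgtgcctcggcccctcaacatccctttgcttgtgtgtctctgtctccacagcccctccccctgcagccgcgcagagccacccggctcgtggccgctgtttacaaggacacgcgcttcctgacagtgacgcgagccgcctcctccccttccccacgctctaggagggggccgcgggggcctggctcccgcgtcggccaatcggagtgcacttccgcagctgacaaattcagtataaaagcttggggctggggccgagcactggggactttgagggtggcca
Fos: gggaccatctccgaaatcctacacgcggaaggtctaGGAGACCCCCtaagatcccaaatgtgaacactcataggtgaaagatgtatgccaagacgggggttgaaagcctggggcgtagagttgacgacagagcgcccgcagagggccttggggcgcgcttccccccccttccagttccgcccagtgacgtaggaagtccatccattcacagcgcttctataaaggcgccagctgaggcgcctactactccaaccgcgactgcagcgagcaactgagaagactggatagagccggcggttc

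Promoter windows of 7 of the 10 genes were searched on both strands for 5 motifs. No window was found for Fosl1 and Ier2, and Egr1 was left out of the search. The motif counts therefore do not cover these genes. A κB match was in 4 of the 7 windows, against 8.49% of 32544 promoter windows of the same length. In Ier3 it lay at -92 from the start site, in Fos at -214, in Fosb at -188, and in Fosl2 at -182 and -181, where 2 matches overlap by all but 1 base. The EGR motif GCGNGGGCG was in 2 windows, Fosb and Fosl2, against 5.6% of all. The CRE TGACGTCA, the AP-1 site TGANTCA and the CArG box bound by SRF were in 0 of the 7, against 1.8%, 7.79% and 1.64% of all windows. A match is a run of letters and no proof of a site, and no match says only that the letters are not in these 300 bases. For 2 genes the RefSeq start site lies far from the gene start given below. The Jund window (chr8:70697489-70697788) ends before that start at 70698949. The Fosl2 window (chr5:32136222-32136521) lies inside the gene, which starts at 32135801.

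Of the FOS family, Fos fell with LPS, and Fos and Fosl2 fell below the LPS level with 30 µM 6-shogaol. Fos (ENSMUSG00000021250, GRCm38 chromosome 12, 85473890 to 85477273) encodes the classic AP-1 partner of JUN. It had 2.79 and 2.67 CPM with LPS, against 6.47 and 5.63 CPM in untreated cells. The groups did not overlap, and Fos fell with LPS by 1.15 on the log2 scale (SE 0.19, 95% interval -1.56 to -0.74, adjusted p = 0.00079). In a limma-trend fit of the authors' normalized table the same change, -1.03, missed the threshold at an adjusted p of 0.0595.

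With LPS and 30 µM 6-shogaol, Fos had 1.1 and 1.3 CPM, below each of the other 10 libraries. These values rest on 18 and 23 expected counts, against 46 and 56 with LPS alone. Fos fell by 1.18 against LPS (SE 0.24, interval -1.69 to -0.66, adjusted p = 0.00227) and by 2.33 against untreated cells (SE 0.22, adjusted p = 3.11e-06). At 10 µM, 6-shogaol left Fos at 2.7 and 2.66 CPM, a difference from LPS of -0.02 (interval -0.47 to 0.43). The 6-gingerol libraries stood between: 1.78 and 1.86 CPM at 10 µM, and 2.23 and 2.33 CPM at 30 µM. Their log2 differences from LPS were -0.58 (interval -1.05 to -0.10) and -0.26 (-0.71 to 0.20), and neither was called. The 10 µM interval excludes 0, but its adjusted p over all genes was 1.

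Fosl2 (ENSMUSG00000029135, chromosome 5, 32135801 to 32157842) encodes FRA-2, a FOS relative without the strong activation domain of FOS. It had 11.1 and 10.1 CPM with LPS and 30 µM 6-shogaol, against 17.9 and 19.1 CPM with LPS alone. The groups did not overlap, and the other 10 libraries lay between 17.2 and 21.6 CPM. Fosl2 fell by 0.80 (SE 0.13, interval -1.08 to -0.53, adjusted p = 0.000379). LPS alone gave -0.13 against untreated cells (interval -0.39 to 0.13).

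Fosl1 (ENSMUSG00000024912, chromosome 19, 5447547 to 5455946) encodes FRA-1. It had 2.26 and 2.99 CPM with 30 µM 6-shogaol and 4.75 and 4.98 CPM with 10 µM. It was lower at 30 than at 10 µM by 0.89 (SE 0.25, interval -1.43 to -0.35, adjusted p = 0.0231), a call that was lost when any 1 of the 4 libraries was left out (adjusted p = 0.0521 to 0.153). Against LPS, whose replicates differed at 2.72 and 4.71 CPM, the 30 µM difference of -0.52 was not called (interval -1.07 to 0.03). Without LPS replicate 1 it was -0.84 and was called (adjusted p = 0.0435). In the authors' normalized table Fosl1 stood at 0.286 to 0.821 of its expected count, while Fos stood at 0.726 to 1.4, and Fosl2, Jun, Junb, Jund, Ier2 and Ier3 lay between 0.859 and 1.3. The gene overlaps Ccdc85b on the other strand, which held 131 to 212 expected counts, and the part of that overlap in the ratio was not tested.

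Fosb (ENSMUSG00000003545, chromosome 7, 19302696 to 19310051), whose product dimerizes like FOS, had 2 to 9 expected counts per library and 59 in all. Its highest level was 0.419 CPM, in an untreated library, and it was not tested. No order of the groups can be read at these counts.

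JUN-family transcripts outnumbered those of the FOS family, and all 3 members fell with 30 µM 6-shogaol. Jund (ENSMUSG00000071076, chromosome 8, 70698949 to 70700616), usually the constitutive member that responds little to stimuli, had 36.3 and 29.4 CPM with LPS and 30 µM 6-shogaol, against 79.9 and 82.2 CPM with LPS. The other 10 libraries spanned 70.0 to 89.6 CPM, with no overlap. Jund fell by 1.31 (SE 0.13, interval -1.58 to -1.03, adjusted p = 3.64e-06). LPS alone gave a difference of 0.05 from untreated cells (interval -0.21 to 0.31), and LPS with 30 µM 6-shogaol one of -1.26 (adjusted p = 5.81e-06).

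Jun (ENSMUSG00000052684, chromosome 4, 95049034 to 95052222), which encodes the strongest activator of the family, had 35.2 and 28.7 CPM with LPS and 30 µM 6-shogaol, against 53.5 and 58.0 CPM with LPS. It fell by 0.81 (SE 0.12, interval -1.07 to -0.54, adjusted p = 0.000243). Every other library was at 53.5 CPM or more, up to 71.1 CPM in 1 untreated library. LPS alone differed from untreated cells by -0.22 (interval -0.48 to 0.03), which was not called. Against untreated cells the 30 µM 6-shogaol libraries were lower by a log2 fold change of -1.03 (adjusted p = 2.75e-05).

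Junb (ENSMUSG00000052837, chromosome 8, 84974484 to 84978718), a JUN relative that can hold back JUN, followed LPS. It had 102.9 and 96.8 CPM with LPS, against 54.9 and 66.7 CPM in untreated cells. It rose by 0.71 (SE 0.13, interval 0.43 to 1.00, adjusted p = 0.00197). With LPS and 30 µM 6-shogaol it had 66.2 and 49.6 CPM, overlapping the untreated libraries. It fell by 0.79 against LPS (SE 0.13, interval -1.07 to -0.50, adjusted p = 0.000606), and its difference from untreated cells was -0.07 (interval -0.36 to 0.22). Among the 8 tested genes Junb alone rose with LPS and was not called against untreated cells at 30 µM 6-shogaol.

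The counts of Jun and Jund are split with antisense genes. The library kit marks strand, per the labels, but whether the counting used it is not given in the sources used here, and reads of these pairs were shared between the strands. For the genes with a partner on the other strand, Fosl1, Jun, Junb and Jund, reads of the overlap may therefore come from either gene. Jun and Junos, and Jund and Gm11175, sum to whole counts (within 0.015) in 12 of 12 libraries, although the counts of Jund are whole in 0 of 12. The antisense gene took 2.15 to 4.34% of the Jun pair and 11.5 to 19.3% of the Jund pair. With the pairs summed, a fit added after seeing the data, 30 µM 6-shogaol against LPS gave -0.80 for Jun and -1.27 for Jund, both called. Junb overlaps the end of Prdx2 on the other strand, with 2849 to 4089 expected counts, and its own counts were whole.

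**Figure D2:**
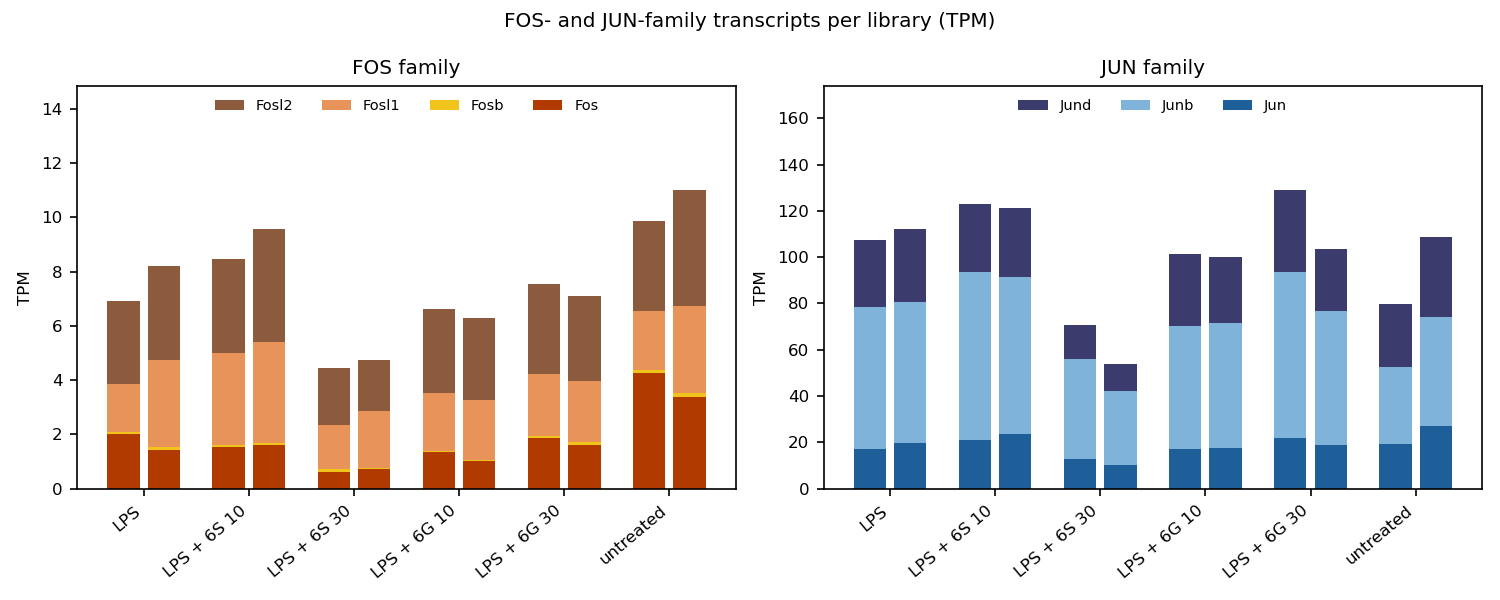
Stacked TPM of the FOS family (left) and the JUN family (right), 1 bar per library and 2 per group. The JUN bars stand at 70.7 and 53.9 TPM with LPS and 30 µM 6-shogaol, against 108 and 112 TPM with LPS alone, and the FOS bars at 4.44 and 4.75 against 6.91 and 8.21 TPM.

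Summed per length, JUN-family transcripts outnumbered FOS-family transcripts in every library, from 8.10 to 17.1 times. FOS-family transcripts summed to 6.91 and 8.21 TPM with LPS, against 9.86 and 11 TPM in untreated cells. Junb made up 55.6 ± 1.98% of the JUN family with LPS, against 42.3 ± 1.16% in untreated cells (SD, n = 2 each). With 30 µM 6-shogaol and LPS the Junb share was 60.7 ± 1.34% and the Jund share 21 ± 0.67%, against 27.5 ± 0.83% for Jund with LPS alone. These libraries do not overlap in share, but 2 against 2 in an exact permutation test cannot go below p = 0.333, so no test is given. Fos made up 29.2 and 17.5% of its family with LPS, against 43.3 and 30.8% in untreated cells, and the spread within each group was close to the gap between their means.

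Egr1 (ENSMUSG00000038418, chromosome 18) was nearly silent. It had 0 expected counts in 11 of the 12 libraries and 1 count in a 30 µM 6-shogaol library. A count of 0 allows up to 3 counts, which is 0.14 to 0.183 CPM over the libraries. Its paralogs were also low. Egr2 averaged 0.50 ± 0.24 CPM with LPS, against 0.79 ± 0.39 CPM in untreated cells, and Egr3 averaged 0.39 ± 0.14 CPM against 0.59 ± 0.04 CPM (SD, n = 2 each), neither called. Nab1 and Nab2, co-repressors of EGR factors, averaged 104 ± 2.17 and 16 ± 0.22 CPM with LPS, against 91.4 ± 0.61 and 21.7 ± 3.71 CPM in untreated cells, also not called. Egr2 was lower with 30 µM 6-shogaol than with 30 µM 6-gingerol, at 0.17 ± 0.16 against 0.82 ± 0.06 CPM (log2 fold change -2.18, SE 0.69, adjusted p = 0.0305), on very few counts.

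Ier3 (ENSMUSG00000003541, chromosome 17, 35821684 to 35822923) had the largest fold change of the 8 tested between 30 µM 6-shogaol and LPS. It had 126 and 125 CPM with LPS, against 62.8 and 62.7 CPM in untreated cells. It rose (log2 fold change 1.00, SE 0.10, interval 0.78 to 1.22, adjusted p = 6.48e-06). With LPS and 30 µM 6-shogaol it had 47.4 and 40.1 CPM, below every other library. It fell by 1.52 against LPS (SE 0.11, interval -1.75 to -1.29, adjusted p = 1.4e-07) and by 0.52 against untreated cells (adjusted p = 0.00221). The second call was lost without replicate 2 of the 30 µM 6-shogaol group (log2 fold change -0.38, adjusted p = 0.0509). With 10 µM 6-shogaol it stayed at 122 and 131 CPM (0.01 from LPS, interval -0.21 to 0.23).

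Ier2 (ENSMUSG00000053560, chromosome 8, 84661331 to 84662852), a gene of 1 exon, had the smallest. It had 9.95 and 9.24 CPM with LPS and 30 µM 6-shogaol, against 10.7 and 12.1 CPM with LPS and 13.7 and 13.2 CPM in untreated cells. The difference from LPS was -0.25 (interval -0.54 to 0.04) and was not called. Against untreated cells Ier2 fell by 0.49 (SE 0.14, adjusted p = 0.016). That call was lost without untreated replicate 1 (adjusted p = 0.0538), without 6-shogaol replicate 2 (0.126) and when these 2 groups were fitted on their own (0.0686).

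**Figure D3:**
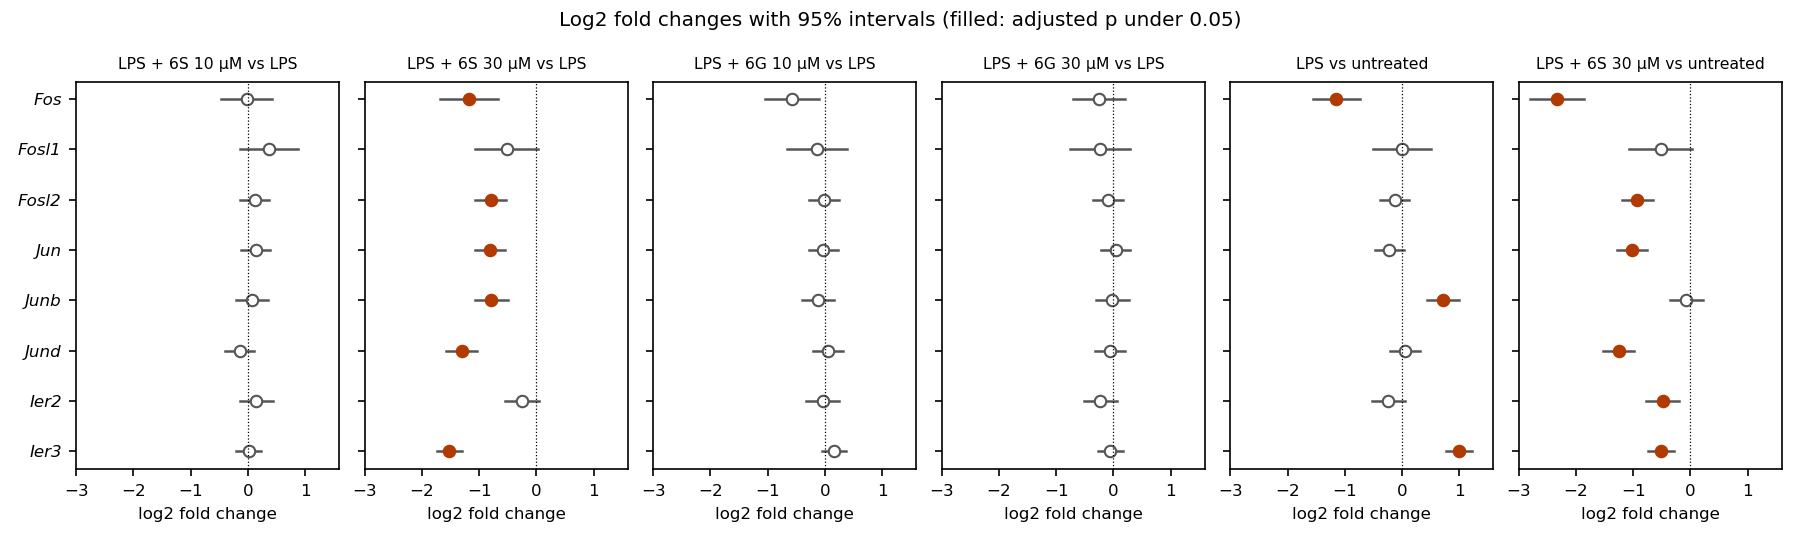
Log2 fold changes of the 8 tested genes with 95% intervals in 6 comparisons; filled points were called at an adjusted p under 0.05. All 6 calls of 30 µM 6-shogaol against LPS are below 0, from -0.79 for Junb to -1.52 for Ier3, and none of the points at 10 µM 6-shogaol or either dose of 6-gingerol is filled.

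The first comparison asks what LPS does to these genes. Of the 10, edgeR called 2 higher (Ier3 and Junb) and 1 lower (Fos), against 7.66% higher and 4.16% lower (11.8% in all) among the 12705 tested genes. With scaling by library totals the split of those genes was 785 higher and 688 lower, against 973 and 528 with TMM, and the same 3 of the 10 were called. The median log2 fold change of the 8 tested was -0.06, beside -0.03 for all genes. Jun, Jund, Fosl1, Fosl2 and Ier2 lay between -0.24 and 0.05, and their intervals held 0.

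The next comparisons ask whether the compounds alter the LPS state. With 30 µM 6-shogaol 6 of the 10 were called lower than with LPS (Fos, Fosl2, Jun, Junb, Jund and Ier3) and 0 higher, against 12.8% lower and 12.6% higher among all genes (25.4% called). The median of the 8 tested was -0.80, beside 0.00 for all genes. At 10 µM of 6-shogaol edgeR called 0 of the 10, with 0 at an unadjusted p under 0.05, and DESeq2 and limma-trend also called 0. There 0.638% of all genes were called, 0.063% higher and 0.575% lower. At 10 µM of 6-gingerol edgeR called 0 of the 10, with 1 (Fos) at an unadjusted p under 0.05, and at 30 µM it called 0, with 0 under that unadjusted p. DESeq2 and limma-trend called 0 of the 10 at both doses, and edgeR called 0% of all genes. The intervals at 30 µM of 6-gingerol bound the change of Ier3 to between -0.27 and 0.16, of Junb to -0.30 and 0.26, and of Jund to -0.31 and 0.21. Those of Fosl1 (-0.77 to 0.29), Fos (-0.71 to 0.20), Ier2 (-0.52 to 0.06) and Fosl2 (-0.36 to 0.17) reached lower. That of Jun was -0.22 to 0.29.

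The compounds were also set against each other at 2 matched doses. At 30 µM, 6-shogaol left 6 of the 10 lower than 6-gingerol did (Fos, Fosl2, Jun, Junb, Jund and Ier3), against 12.4% of all genes lower and 12.5% higher (25% called). Scaled by library totals, 1265 of all genes were higher and 1653 lower, against 1592 and 1579 with TMM. Ier3 had 47.4 and 40.1 CPM with 6-shogaol, against 116 and 125 CPM with 6-gingerol (log2 fold change -1.46, SE 0.11, adjusted p = 2.29e-07). Jund differed by -1.25 (SE 0.13, adjusted p = 6.45e-06), Jun by -0.84, Junb by -0.77 and Fosl2 by -0.71, each called. Fos differed by -0.92 (SE 0.25, adjusted p = 0.0127), a call that held, as did the other 5, with p adjusted over both dose pairs together (0.0231), but that DESeq2 did not make (adjusted p = 0.0633), and one that was lost without 6-gingerol replicate 2 (0.0642) or without 6-shogaol replicate 1 (0.0857). Ier2 and Fosl1 were not called, with intervals of -0.32 to 0.27 and -0.84 to 0.28.

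At 10 µM the 2 compounds were not separated by any of the 10 genes in edgeR, with 1 at an unadjusted p under 0.05 and 0 calls by DESeq2 or limma-trend, while 0.638% of all genes were called (0.0787% higher, 0.559% lower). With library totals the 10 higher and 71 lower calls over all genes became 21 and 48. Fos had 2.7 and 2.66 CPM with 6-shogaol, against 1.78 and 1.86 CPM with 6-gingerol. The groups did not overlap, but the difference of 0.56 (interval 0.08 to 1.03) had an adjusted p of 0.278 (0.128 over both dose pairs). Ier3 differed by -0.15 (-0.37 to 0.07), Jund by -0.20 (-0.46 to 0.06) and Junb by 0.20 (-0.08 to 0.48).

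The dose step of 6-shogaol, from 10 to 30 µM, was set out directly. At 30 µM 7 of the 10 were lower than at 10 µM, with 9.54% of all genes lower and 9.85% higher (19.4% called). With library totals the split over all genes was 870 higher and 1434 lower, against 1251 and 1212 with TMM. Ier3 changed by -1.53 (SE 0.11), Jund by -1.16 (SE 0.13), Fos by -1.15 (SE 0.24), Jun by -0.94 (SE 0.12), Fosl2 by -0.92 (SE 0.13), Junb by -0.86 (SE 0.13) and Fosl1 by -0.89 as above. Ier2, at -0.40 (interval -0.69 to -0.10), had an adjusted p of 0.0552 and was not called, but it was called with scaling by library totals (0.0326), in a fit of these 2 dose groups (0.0396) and with fragment length as a covariate (0.0292).

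Set against untreated cells, LPS with 30 µM 6-shogaol left 6 of the 10 lower, against 12.1% of all genes lower and 13.3% higher (25.4% called). With library totals the split over all genes was 1322 higher and 1758 lower, against 1696 and 1533 with TMM. Fos, Jund, Jun and Fosl2 lay furthest below, with log2 fold changes of -2.33, -1.26, -1.03 and -0.93. Ier3 and Ier2 followed at -0.52 and -0.49. Fosl1, also at -0.52 (interval -1.07 to 0.03), and Junb, at -0.07, were not called.

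Other basic leucine zipper genes were also lower with 30 µM 6-shogaol. ATF3, a repressor of TLR4-driven cytokine genes, is encoded by Atf3, which averaged 109 ± 0.58 CPM with LPS and 30 µM 6-shogaol, against 269 ± 16.1 CPM with LPS (SD, n = 2 each). Its log2 fold change was -1.3 (SE 0.10, adjusted p = 2.47e-07). Of 16 tested genes of this list (17 listed) 6 fell, with a median of -0.46, where 12.8% of all genes were lower and 12.6% higher. Maff, a small MAF protein, fell by 1.25, and Nfil3, a zipper repressor, fell by 0.87. Against untreated cells, LPS raised 3 of the 16 and lowered 3, where 7.66% of all genes were higher and 4.16% lower. Maff averaged 27.7 ± 0.26 CPM with LPS against 8.70 ± 1.71 CPM in untreated cells (log2 fold change 1.66), and Jdp2, an AP-1 repressor, rose by 0.56. The other gene that rose, Batf, stayed under 5 CPM. Maf had -1.05 and Cebpd -0.69, both called.

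Of 36 tested other immediate early genes (40 listed), 19 fell and 1 rose with LPS and 30 µM 6-shogaol against LPS, with a median of -0.52, where 12.8% of all genes were lower and 12.6% higher. The largest falls among the 19 were those of Rgs1, a regulator of G-protein signalling (-1.43), the transcription factor gene Klf2 (-1.37) and the kinase gene Sgk1 (-1.34). Rgs2, of the same family as Rgs1, rose by 0.61. With LPS alone 11 rose and 1 fell, where 7.66% of all genes were higher and 4.16% lower. The kinase gene Plk2 averaged 128 ± 7.29 CPM with LPS, against 47.4 ± 2.23 CPM in untreated cells (log2 fold change 1.43), the kinase gene Pim1 had 0.92 and Nfkbiz, a nuclear IκB protein, 0.90. Rgs2 was the gene that fell, by 1.05.

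Of 29 genes that act upstream (MAP kinases, SRF and related genes), all tested, 7 rose and 1 fell with LPS and 30 µM 6-shogaol against LPS, with a median of 0.10. With 25.4% of all genes called there (12.6% higher, 12.8% lower), the share of this list called in either direction was near that of all genes. Its calls were mostly rises, whereas those of all genes were split about evenly. Among those that rose were the kinase genes Rps6ka5 (0.46) and Map3k8 (0.45), and Map2k6 fell by 0.47. With LPS alone 3 rose, Mapkapk2, Map2k6 and Rps6ka4, where 7.66% of all genes were higher. Mapkapk2, which encodes the p38-activated kinase MK2, averaged 1004 ± 30.8 CPM with LPS, against 357 ± 92.5 CPM in untreated cells (log2 fold change 1.49).

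Genes known as AP-1 targets, many of which also answer to NF-κB, had the widest range of changes among these lists. Of 16 tested (20 listed) 10 fell and 1 rose with LPS and 30 µM 6-shogaol against LPS, with a median of -1.03, where 12.8% of all genes were lower and 12.6% higher. The chemokine genes Cxcl2 and Ccl2 had log2 fold changes of -3.55 and -3.38, and the membrane protease gene Mmp14 -2.75. Ccnd1, which encodes cyclin D1, rose by 1.00. LPS raised 9 of the 16 against untreated cells, where 7.66% of all genes were higher. With 10 µM 6-shogaol 3 fell against LPS, Ccl2 by 1.23, Cxcl2 by 0.73 and Ptgs2, cyclooxygenase 2, by 0.63, where 0.575% of all genes were lower.

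Likeness was measured as Pearson's r of log2 CPM over the 12 libraries, among 9894 other genes with a mean of at least 5 CPM. The libraries share 6 treatments, so r includes the differences between group means and is given as a description. Ier3 was most like Hcar2 (0.983), Irak2 (0.981) and Ptgir (0.98). Junb was most like Vasp (0.986), Mras (0.984) and Pdgfb (0.977), and Jund like Nfil3, Armh3 and 2410131K14Rik (0.987 each). Jun was most like Prr14 (0.981), Ppp1r3b (0.978) and Fam98c (0.977), and Fosl2 like Kmt5b and Slc27a1 (0.974 each) and Stk19 (0.97). Fos came closest to Lmo2 and Gpr35 (0.953 each) and Stra6l (0.945), Ier2 to Tmem69 (0.924), Ly9 (0.889) and Zfp329 (0.864), and Fosl1 to Rnf111 (0.888), Rcor3 (0.798) and Nr2c2 (0.788). Among the members, Fosl2 and Jun had the highest r (0.977) and Junb and Ier3 had 0.913, whereas Fos and Junb had -0.06.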

How the data were processed

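BV2 RNA (stranded TruSeq mRNA libraries, paired-end) was deposited as 1 RSEM gene table per library. Per the file headers the authors' tables hold the expected count (estimated reads, 7.03% of values not whole) and TPM of each gene. A second deposited table holds the authors' normalized signal for 18013 genes, and how it was scaled is not given in the sources used here. Per the submitters' processing notes, the aligner STAR (2.7.11b), the counter RSEM (1.3.3), Trimmomatic (0.39), FastQC (0.12.1), DESeq2 (1.44.0) under R (4.4.2) and the build GRCm38 were used, with no settings or annotation given in the sources used here. Symbols and positions are from GENCODE M21 on GRCm38 (98% of identifiers matched), and promoter windows are from RefSeq on GRCm38.p6.

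Expected counts were rounded, filtered (filterByExpr, 12705 genes kept), TMM-scaled, and modelled over the 12 libraries together with 1 mean per group in edgeR 4.0.16 (R 4.3.3). The robust quasi-likelihood F test was run for 9 comparisons, with 6 residual degrees of freedom. Calls were made where the 2-sided p, after Benjamini-Hochberg adjustment over all genes, was under 0.05. Intervals are 95% and cover the spread between libraries, with 1 estimate of spread per gene shared by the 6 groups. By chi-square per degree of freedom against counting error, the untreated replicates differed most, at 36.3 against 6.29 to 16.4 in the other groups. Intervals and p-values against untreated cells may therefore be too small. The limit of 3 counts covers counting error only. Alternatives used DESeq2 1.42.0, limma 3.58.1 (limma-trend on log2 of the authors' signal plus 1, for genes with a mean of at least 10), library totals, no count filter, only the 2 groups compared, a replicate term and each library left out.

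The 10 genes and the lists were chosen with earlier results of these data known. Named beside the 10 were up to 3 called genes per list and direction with the largest log2 fold change and at least 5 CPM in a group, and the 3 genes most like each member. Some genes that this rule names are not reported here. Egr2, Egr3, Nab1, Nab2 and Batf were named after their values were seen.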

Additional observations from a re-analysis of the deposited data

How the results depend on the processing

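The number of the 10 genes called stayed within 1.5 times the value given under each alternative run, in each of the 9 comparisons. Leaving out each library in turn gave 3 called for LPS against untreated, 6 to 7 for 30 µM 6-shogaol against LPS, 5 to 6 against 30 µM 6-gingerol, 6 against 10 µM 6-shogaol and 4 to 6 against untreated cells. Whether the replicate numbers pair the samples is not given in the sources used here, and weak correlations cannot settle it. Correlations of same-numbered deviations between groups ran from -0.312 to 0.178, 5 of 15 over 0.1. The lowest, -0.312 and -0.188, were those of untreated cells with 30 µM 6-gingerol and with 30 µM 6-shogaol. With the replicate block the counts were 3, 6, 6, 7 and 6, and with the untreated numbers crossed, chosen after seeing the data, 6 for 30 µM 6-shogaol against untreated. Of 872 single-gene values under the alternatives, 12 lost their call, 4 gained one and 0 reversed, and those are named beside their genes. Counts over all genes moved more. For LPS against untreated, 1501 genes were called, against 855 and 768 without LPS replicate 1 and 2. For 30 µM 6-shogaol against LPS the 3222 calls became 1827 and 1833 without those libraries and 2091 without 6-shogaol replicate 2. Against 30 µM 6-gingerol the 3171 became 1807 and 2090 without 6-gingerol replicate 1 and 2, and 1869 without 6-shogaol replicate 2. Without that library the 3229 calls against untreated became 1980 (2092 in a fit of the 2 groups), and the 2463 calls against 10 µM became 1150, or 1244 and 960 without 10 µM replicate 1 and 2. For 10 µM 6-shogaol the 81 calls against LPS ranged from 18 (without 6-shogaol replicate 2) to 970 (the 2 groups on their own), and the 81 against 10 µM 6-gingerol from 16 (the same library out) to 419 (no count filter). For 6-gingerol against LPS, with 0 calls, no filter gave 28 at 10 µM and 27 at 30 µM. At 30 µM DESeq2 called 2 genes and a fit of the 2 groups called 5, all lower. None of these calls was among the 10 genes. The fits with fragment length and with antisense counts were added after seeing the data and ended no call of the 10. Scaling by library totals shifted the median of all genes by at most 0.11 (10 µM 6-shogaol against 10 µM 6-gingerol).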
